A study of Mus musculus with 8 samples.

Results

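The 51 genes described here are interferon-stimulated genes and the interferon receptor genes, taken from a list of symbols and found in the count table of mouse pancreatic islet RNA by exact match. All 51 were among its 32531 rows, and 50 of them were tested, having reached 10 counts in 4 or more of the 8 libraries. Islets came from 4 control mice (RIP-Cre+, Rosa26-rtTA+, tetO_NICD-) and 4 β-tetO-NICD mice (RIP-Cre+, Rosa26-rtTA+, tetO_NICD+), all on a mixed background of C57BL/6J, 129X1/SvJ and BALB/c. Both groups received doxycycline (Dox) in drinking water for 8 weeks, and both carried Cre, which is driven by the rat insulin promoter and therefore acts mainly in β cells. Only in β-tetO-NICD mice can Dox switch on NICD, the intracellular domain of Notch1 that signals without ligand. The ages of the mice are not given in the sources used here, and each library is labelled as a single mouse. RNA was taken from whole islets, so a difference can come from β cells or from any other cell in the preparation.

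Interferons are cytokines released on viral or bacterial sensing. Type I interferons bind IFNAR1 and IFNAR2, and interferon-γ binds IFNGR1 and IFNGR2. The receptors signal through Janus kinases to STAT proteins, and a complex with STAT2 and IRF9 binds the interferon-stimulated response element (ISRE) in the promoters of target genes. Many of these targets encode proteins that sense foreign nucleic acid, block viral entry or translation, or tag proteins with ISG15. In islets the same program is known from viral infection and from autoimmune diabetes, where β cells themselves respond to interferon.

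Libraries held 21701223 to 26413146 counts. Notch1, whose counts include the transgene as far as reads were assigned to it, had 1051 to 1562 counts in controls and 11388 to 36628 in β-tetO-NICD islets, so every library matched its label. The β-tetO-NICD columns are numbered 1, 2, 4 and 5, and the columns numbered 4 and 5 could be tied to the group but not to single mice. Eif2s3y, a Y-linked gene, was counted in controls 2 and 4 and β-tetO-NICD 5 (1300 to 1527 counts) and gave at most 1 count in the other 5 libraries, although the methods state that islets of males were used. Libraries also differed by transcript length. The level of a gene relative to its mean over libraries rose with the length of its longest transcript in controls 1, 2 and 4 and β-tetO-NICD 1 (Spearman's rho across genes 0.44 to 0.52) and fell with it in control 3 (-0.18) and β-tetO-NICD 2, 4 and 5 (-0.54 to -0.37).

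Of the 50 tested genes, 19 rose in β-tetO-NICD islets at an adjusted p under 0.05 by edgeR's quasi-likelihood test, led by the ubiquitin-like modifier Isg15, the radical SAM enzyme Rsad2 (viperin), the nucleic acid sensor Zbp1, Ifit1, Ifit3 and Mx2. The 19 are 38% of those tested, against 4.19% of all 15082 tested genes that were called higher. The fit called 0 of the 50 lower, against 2.57% of all genes, and 0 had a negative log2 fold change with an unadjusted p under 0.05 (DESeq2 and limma-voom also called 0 lower). The median log2 fold change was 0.84 over the 50 genes (1.80-fold) and 0.00 over all tested genes, with 43 positive and 7 negative. The 31 that were not called included the 4 receptor genes and the transcription factor genes Irf1, Irf9 and Stat2. In RNA of whole islets, more cells of a type that carries these transcripts and more RNA per cell cannot be told apart.

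**Figure D1:**
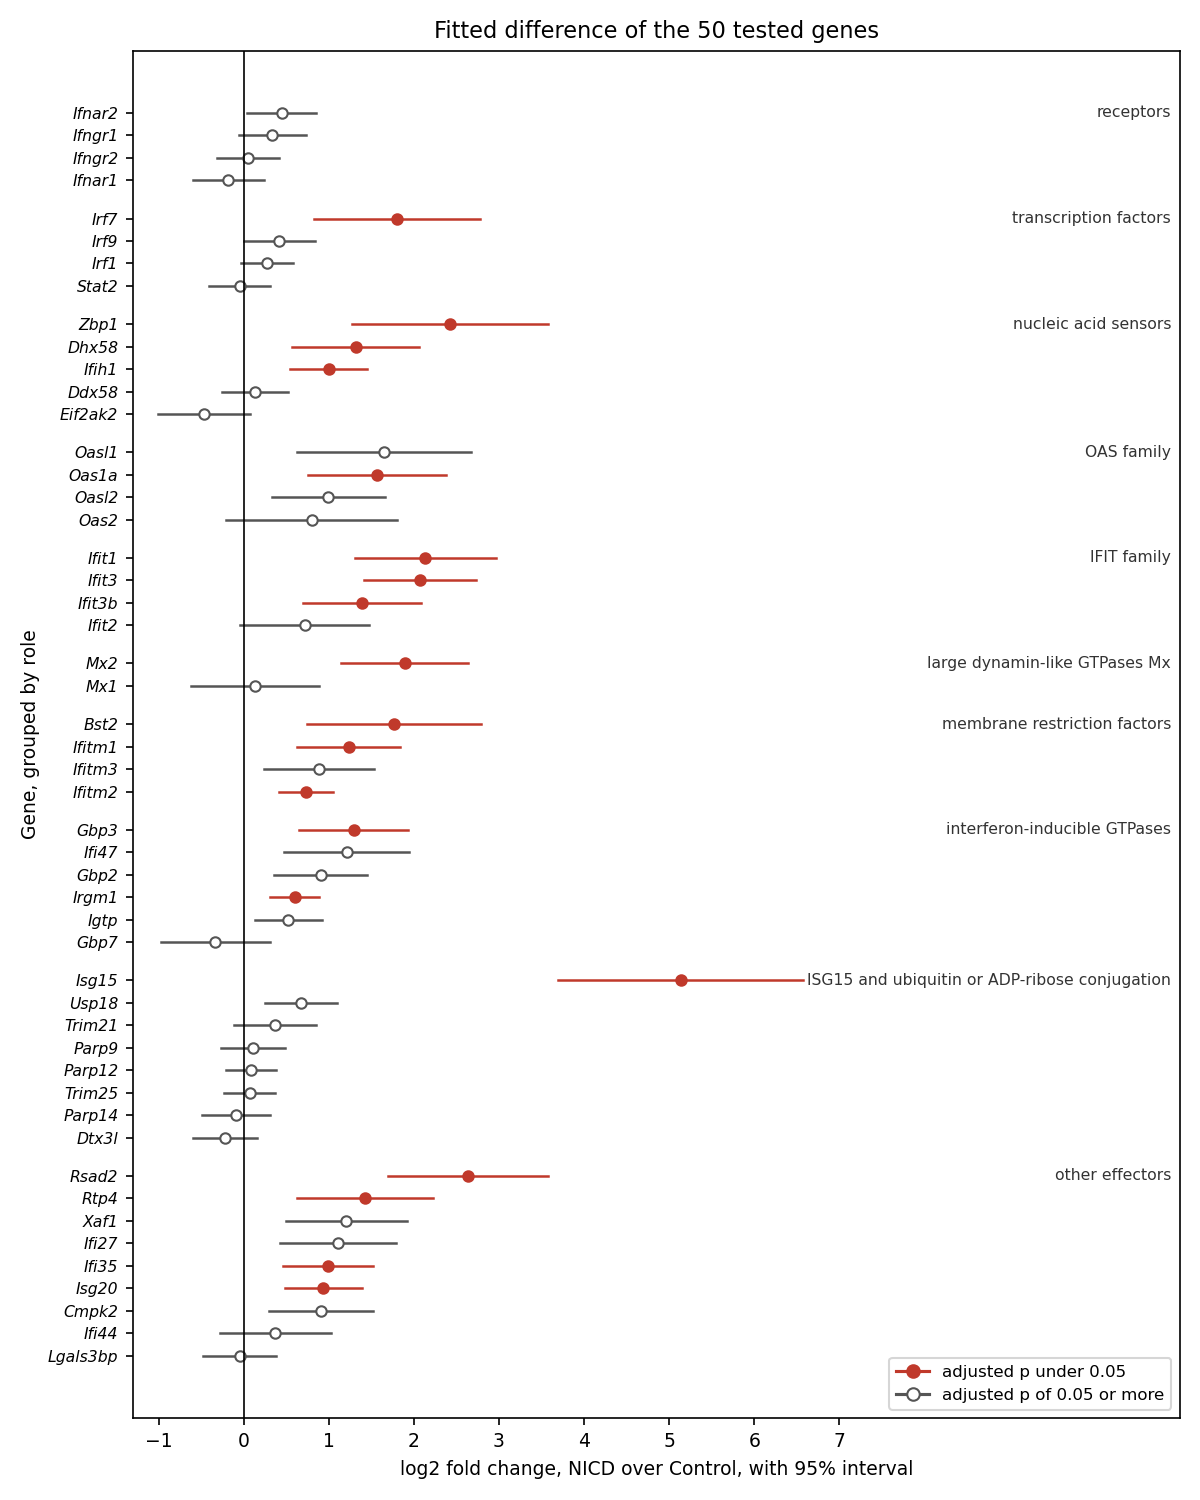
Log2 fold change of each tested gene, β-tetO-NICD (NICD) over Control, with its 95% interval (n = 4 libraries per group), grouped by role. Filled red points are the 19 genes past the threshold; Isg15 lies far to the right at 5.13, and the 7 negative values lie between -0.47 and -0.05 with intervals that include 0.

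Values are given as counts scaled to library size (CPM) on the TMM scale, which corrects that size for composition, in the order controls 1, 2, 3 and 4 and then β-tetO-NICD 1, 2, 4 and 5. Each gene called was also tested in 8 fits that each left out 1 library.

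Isg15 encodes a small protein that is conjugated to other proteins during the interferon response. It measured 0.922, 0.760, 1.54 and 1.18 CPM in controls and 6.56, 61.9, 33.5 and 54.0 CPM in β-tetO-NICD islets. Every β-tetO-NICD library lay above every control, although β-tetO-NICD 1, with 138 counts, was far below the other three. The controls rested on 18 to 39 counts. The log2 fold change was 5.13 (SE 0.65, 35.1-fold, adjusted p = 0.00224), and it passed in all 8 fits with a library left out, where the log2 fold change was between 4.83 and 5.49. The gene is protein coding and lies at chr4:156199424-156200818 on the minus strand (GRCm38, GENCODE M21). Per kilobase of its longest transcript the mean level went from 1.46 to 51.6 CPM, which moved Isg15 from rank 37 to rank 5 among the 51 genes.

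The promoter sequences of Isg15, Ifit1, Ifit3, Ifit3b and Rsad2 are shown because these genes rose and hold the ISRE core within the window shown, and that of Stat2 because it holds the same core and had a log2 fold change of -0.05. These genes were chosen after their values were seen. Each line gives the 250 bases before the start of the gene in RefSeq (GRCm38.p6), read along the gene's strand, with matches to the ISRE core on either strand in capitals. The windows are chr4:156200819-156201068 (minus) for Isg15, chr19:34640639-34640888 (plus) for Ifit1, chr19:34583279-34583528 (plus) for Ifit3, chr19:34607707-34607956 (plus) for Ifit3b, chr12:26456453-26456702 (minus) for Rsad2 and chr10:128270248-128270497 (plus) for Stat2.
Isg15: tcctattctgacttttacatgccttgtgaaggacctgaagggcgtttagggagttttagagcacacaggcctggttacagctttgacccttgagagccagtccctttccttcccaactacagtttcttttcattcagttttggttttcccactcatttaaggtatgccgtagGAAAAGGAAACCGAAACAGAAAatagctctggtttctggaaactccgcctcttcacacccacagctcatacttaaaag
Ifit1: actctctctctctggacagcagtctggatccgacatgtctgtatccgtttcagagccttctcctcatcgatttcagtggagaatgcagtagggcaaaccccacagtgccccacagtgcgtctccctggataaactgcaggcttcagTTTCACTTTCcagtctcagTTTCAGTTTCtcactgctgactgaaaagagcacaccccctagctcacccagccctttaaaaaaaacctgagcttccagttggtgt
Ifit3: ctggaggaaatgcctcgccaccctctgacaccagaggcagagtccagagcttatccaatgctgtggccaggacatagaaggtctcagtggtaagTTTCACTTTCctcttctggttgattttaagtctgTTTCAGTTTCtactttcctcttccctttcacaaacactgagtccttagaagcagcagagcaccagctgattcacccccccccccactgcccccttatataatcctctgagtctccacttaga
Ifit3b: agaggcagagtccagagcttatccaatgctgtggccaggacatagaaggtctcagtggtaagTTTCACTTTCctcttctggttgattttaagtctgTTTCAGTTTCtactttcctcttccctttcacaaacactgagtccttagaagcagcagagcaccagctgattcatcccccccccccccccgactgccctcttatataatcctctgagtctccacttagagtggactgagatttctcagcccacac
Rsad2: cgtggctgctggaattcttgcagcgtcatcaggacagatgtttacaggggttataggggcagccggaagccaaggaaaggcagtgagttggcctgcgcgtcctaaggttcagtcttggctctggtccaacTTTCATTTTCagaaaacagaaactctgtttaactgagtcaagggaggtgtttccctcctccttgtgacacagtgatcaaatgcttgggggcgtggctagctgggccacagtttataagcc
Stat2: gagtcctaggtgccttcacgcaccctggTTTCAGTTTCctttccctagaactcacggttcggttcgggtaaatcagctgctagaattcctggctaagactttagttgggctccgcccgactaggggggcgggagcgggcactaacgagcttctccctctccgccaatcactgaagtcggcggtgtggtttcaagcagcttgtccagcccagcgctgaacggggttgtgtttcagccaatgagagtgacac
Isg15 holds 3 overlapping matches that end 68, 62 and 56 bases before its start. Ifit1 and Ifit3 hold 2 matches each, ending 94 and 75 bases and 146 and 112 bases before the start, and Ifit3b holds 2 that end 178 and 144 bases before it. The Ifit3 and Ifit3b sequences share a long stretch around both matches. Rsad2 holds 1 match, ending 110 bases before the start, and Stat2 holds 1, ending 212 bases before it.

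Over windows from 250 bases before to 50 after the start of the 41 genes that had one in RefSeq, the ISRE core GAAANNGAAA, read on both strands, matched 20 (48.8%), against 3.99% of 27025 genes. The shorter gamma-activated sequence TTCNNNGAA, known from genes that respond to interferon-γ, matched 12 of 41 (29.3%), against 9.55% of all genes. The core TGGGAA of RBPJ, the DNA-binding partner of NICD, matched 14 of 41 (34.1%), against 28.3%. Matches of the 3 motifs can share letters. Of the called genes with a window, 11 of 15 held the ISRE core, 4 the gamma-activated sequence and 8 the RBPJ core. Of the tested genes not called, 8 of 25 held the ISRE core, 8 the gamma-activated sequence and 5 the RBPJ core. These counts describe letters in the windows and do not show binding. Mx2, Dhx58, Rtp4, Parp14, Zbp1, Usp18, Ifi27, Oas2, Mx1 and Parp9 had no window in the table used.

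The 4 receptor genes had log2 fold changes from -0.18 to 0.45 and did not pass the test. Ifnar1, a chain of the type I receptor, measured 32.0, 29.9, 23.1 and 28.7 CPM in controls and 32.6, 24.4, 24.7 and 18.7 CPM in β-tetO-NICD islets, and the groups overlapped (log2 fold change -0.18, SE 0.19, adjusted p = 0.514). Its partner Ifnar2 had 21.3, 25.4, 25.6 and 21.5 CPM, then 24.0, 32.0, 29.8 and 42.2 CPM, with β-tetO-NICD 1 inside the control range (0.45, SE 0.18, adjusted p = 0.135). Ifngr1, which binds interferon-γ, had 28.3, 33.6, 25.2 and 25.4 CPM, then 30.1, 33.0, 32.9 and 46.4 CPM, so that only β-tetO-NICD 5 exceeded every control (0.34, SE 0.17, adjusted p = 0.203). For Ifngr2, its signaling partner, the values were 18.9, 20.5, 23.0 and 14.7 CPM and 18.3, 21.2, 21.68 and 19.0 CPM, all within the range of the controls (0.06, SE 0.16, adjusted p = 0.827). The 95% intervals of the log2 fold changes ran from -0.60 to 0.24, 0.04 to 0.86, -0.05 to 0.73 and -0.31 to 0.42, in the same order. By edgeR 0 of the 4 passed after adjustment and Ifnar2 alone had an unadjusted p under 0.05. DESeq2 and limma-voom also called 0. Without β-tetO-NICD 1, Ifnar2 passed (log2 fold change 0.57, adjusted p = 0.0276).

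Among the transcription factors only Irf7 passed the test. Irf7, which amplifies type I interferon production and is itself induced by interferon, measured 3.32, 4.69, 7.08 and 3.98 CPM in controls and 7.37, 32.8, 13.1 and 13.4 CPM in β-tetO-NICD islets. No control reached the β-tetO-NICD range, but β-tetO-NICD 1 exceeded control 3 by little. Irf7 had a log2 fold change of 1.80 (SE 0.44, adjusted p = 0.0403), and it passed in 2 of the 8 fits with a library left out (highest adjusted p = 0.116). Irf9, the DNA-binding part of the complex with STAT2, had 14.1, 15.1, 14.5 and 12.3 CPM and then 16.1, 25.6, 16.7 and 16.5 CPM. Here too every β-tetO-NICD library was above every control, yet the gene missed the threshold (0.42, SE 0.18, adjusted p = 0.153). Irf1, which responds early to interferon-γ, had 37.5, 43.2, 35.3 and 37.3 CPM and 43.5, 53.9, 46.0 and 42.1 CPM, with β-tetO-NICD 5 inside the control range (0.28, SE 0.13, adjusted p = 0.186). Stat2 had 17.0, 19.9, 14.5 and 18.0 CPM and 16.9, 19.4, 17.2 and 13.7 CPM, and the groups overlapped, with β-tetO-NICD 5 below every control (-0.05, 95% interval -0.41 to 0.32, adjusted p = 0.859).

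Of the 5 genes for sensors of foreign nucleic acid, 3 rose. Zbp1, a sensor of Z-form nucleic acid that triggers cell death, was the lowest of all called genes, with 2, 8, 12 and 4 counts in controls (0.0922, 0.338, 0.475 and 0.162 CPM) and 17, 54, 38 and 29 counts in β-tetO-NICD islets (0.808, 2.36, 1.26 and 1.46 CPM). No overlap was seen, although only control 3 among the controls reached the count minimum of 10. Its log2 fold change was 2.43 (SE 0.52, adjusted p = 0.0250), and it passed in 3 of the 8 fits with a library left out (highest adjusted p = 0.0823). Ifih1 (MDA5), the sensor of long double-stranded RNA, measured 10.2, 13.4, 11.5 and 13.7 CPM and then 24.6, 32.4, 17.6 and 23.0 CPM. It was the called sensor in which β-tetO-NICD 1 was not the lowest of its group. Ifih1 rose 2.0-fold (log2 fold change 1.0, SE 0.20, adjusted p = 0.0198) and passed in 6 of 8 fits (highest adjusted p = 0.0612). Dhx58 (LGP2), a regulator of the RIG-I-like sensors, had 2.81, 3.80, 3.40 and 4.42 CPM and 4.75, 15.1, 7.70 and 8.46 CPM, with a narrow gap between control 4 and β-tetO-NICD 1 (1.32, SE 0.33, adjusted p = 0.0463, passing in 1 of 8 fits, highest 0.126). Exons of Dhx58 overlap an antisense gene, and so do those of the called genes Irf7 and Ifi35. Reads of such pairs may not have been told apart, since the strand setting of the counting is not given in the sources used here. Exons of the called genes Rtp4 and Ifitm2 overlap another gene on the same strand. Ddx58 (RIG-I) and Eif2ak2 (PKR, the kinase that stops translation on double-stranded RNA) had log2 fold changes of 0.14 and -0.47, with overlapping groups. That of Eif2ak2 was the lowest of the 50 genes (adjusted p = 0.205), and without β-tetO-NICD 1 it was -0.68 and passed (adjusted p = 0.0342).

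The OAS genes encode sensors of double-stranded RNA that activate an RNase, and their OASL relatives. Oas1a measured 2.90, 2.28, 2.81 and 1.87 CPM in controls and 3.14, 10.8, 6.28 and 8.92 CPM in β-tetO-NICD islets. The groups were separated only by the small step from control 1 to β-tetO-NICD 1. Its log2 fold change was 1.56 (SE 0.36, adjusted p = 0.0346), and it passed in 1 of 8 fits with a library left out (highest adjusted p = 0.112). Oasl1 had the largest log2 fold change of the family, 1.65, and missed the threshold (SE 0.46, adjusted p = 0.0595), with β-tetO-NICD 1 inside the control range. Oas2 had the smallest (0.80, adjusted p = 0.237) and Oasl2 lay between (1.0, adjusted p = 0.0704). Oas3 did not reach the count filter, with 6 to 11 counts in controls and 8 to 17 in β-tetO-NICD islets. The Oas1 genes are close copies of each other, so the share of reads given to Oas1a is uncertain.

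Of the 4 IFIT genes, 3 rose. These neighbours on chromosome 19 encode proteins that bind viral RNA and hinder its translation. Ifit1 measured 4.80, 5.66, 4.87 and 7.35 CPM in controls and 9.41, 37.9, 24.0 and 28.4 CPM in β-tetO-NICD islets, without overlap. Its log2 fold change was 2.14 (SE 0.37, 4.39-fold, adjusted p = 0.0104). Ifit3 had 3.78, 4.39, 2.93 and 3.0 CPM and then 8.65, 22.4, 13.0 and 15.2 CPM, so even β-tetO-NICD 1 was well above the highest control (2.07, SE 0.30, 4.20-fold, adjusted p = 0.00409). Both genes passed in all 8 fits with a library left out. Ifit3b, a near copy of Ifit3, had 2.12, 2.37, 3.01 and 2.64 CPM and 4.42, 10.7, 6.87 and 4.68 CPM (1.39, SE 0.31, adjusted p = 0.0287). It passed in 3 of 8 such fits (highest adjusted p = 0.0851), and reads could have been divided between the copies. Ifit2 had the smallest log2 fold change of the family, 0.72 (SE 0.34, adjusted p = 0.177), with β-tetO-NICD 1 inside the control range.

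The dynamin-like GTPase genes Mx1 and Mx2 block viruses in the nucleus and cytoplasm, respectively, in the mouse. Mx2 measured 1.80, 2.11, 1.46 and 1.05 CPM in controls and 3.18, 7.90, 6.28 and 6.50 CPM in β-tetO-NICD islets, without overlap. Mx2 had a log2 fold change of 1.89 (SE 0.33, 3.71-fold, adjusted p = 0.0113), and it passed in all 8 fits. Mx1, with 24 to 57 counts per library, had a log2 fold change of 0.14 (SE 0.34, 95% interval -0.61 to 0.89, adjusted p = 0.792). Many laboratory strains carry defective Mx alleles, and GENCODE M21 lists Mx2 as a polymorphic pseudogene.

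Of the genes for membrane proteins that restrict viral entry or release, 3 of 4 rose. Bst2 (tetherin), which holds budding virus at the cell surface, measured 6.13, 5.11, 8.90 and 4.22 CPM in controls and 6.27, 31.1, 15.7 and 29.8 CPM in β-tetO-NICD islets. The groups overlapped, since β-tetO-NICD 1 lay below control 3. Its log2 fold change was 1.76 (SE 0.46, adjusted p = 0.0490), and it passed in 1 of 8 fits with a library left out (highest adjusted p = 0.148). Ifitm1 had 4.11, 6.08, 3.76 and 3.61 CPM and then 6.32, 10.2, 12.8 and 11.9 CPM, with β-tetO-NICD 1 just above control 2 (1.24, SE 0.27, adjusted p = 0.0270, 2 of 8 fits, highest 0.0889). Ifitm2 had 24.8, 24.6, 22.9 and 23.1 CPM and 31.9, 45.3, 39.4 and 41.8 CPM, a clear gap between tight controls and all β-tetO-NICD libraries. Its change was the smallest of the 3 (0.73, SE 0.14, adjusted p = 0.0167, 4 of 8 fits, highest 0.0638). Ifitm3 missed the threshold (0.89, SE 0.29, adjusted p = 0.0865). The IFITM genes resemble each other in sequence, are among the shortest of the 51 genes (655 to 882 bases), and Ifitm1 and Ifitm2 lost their calls in a fit with a length offset (adjusted p = 0.0873 and 0.402).

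The interferon-inducible GTPases, GBP and IRG proteins, attack the vacuoles of intracellular microbes. Gbp3 measured 2.35, 2.49, 3.13 and 1.87 CPM in controls and 3.94, 8.78, 5.94 and 5.44 CPM in β-tetO-NICD islets, without overlap (log2 fold change 1.29, SE 0.29, adjusted p = 0.0288, 3 of 8 fits with a library left out, highest 0.0912). Irgm1, a regulator of the other IRG proteins, had 17.5, 18.8, 18.4 and 19.0 CPM and then 25.3, 31.7, 28.2 and 26.6 CPM. This was the smallest rise among the 19 called genes, 1.51-fold (0.60, SE 0.13, adjusted p = 0.0255), with little spread between controls (18.4 ± 0.683 CPM, SD, n = 4). It passed in 2 of 8 fits (highest adjusted p = 0.0851). Ifi47 did not overlap between groups but missed the threshold (1.21, SE 0.33, adjusted p = 0.0559), as did Gbp2 (0.91, SE 0.25, adjusted p = 0.0558) and Igtp (0.52, SE 0.18, adjusted p = 0.0928), whose groups overlapped. The smallest log2 fold change was that of Gbp7, -0.33 (SE 0.29, adjusted p = 0.427).

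Beside Isg15, none of the other 7 genes of ISG15, ubiquitin and ADP-ribose conjugation passed in edgeR's test. Usp18, which removes ISG15 and dampens receptor signaling, came nearest (0.67, SE 0.19, adjusted p = 0.0603), with no overlap between groups. It alone of the 7 had an unadjusted p under 0.05 and a call by DESeq2, and limma-voom called 0 of the 7. Trim25, an E3 ligase that acts on RIG-I, had the second highest mean CPM over all 8 libraries after Lgals3bp, at 110, 104, 86.5 and 99.1 CPM in controls and 115, 108, 99.4 and 97.8 CPM in β-tetO-NICD islets. The groups overlapped (0.07, 95% interval -0.23 to 0.37, adjusted p = 0.719). Dtx3l had the smallest log2 fold change of this group, -0.22 (SE 0.17, adjusted p = 0.383). Its exons overlap those of Parp9 on the opposite strand. Parp9, Parp12, Parp14 and Trim21 lay between -0.09 and 0.37, with overlapping groups.

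Of the 9 remaining effector genes, 4 rose. Rsad2, whose product makes a chain-terminating nucleotide, measured 8.03, 5.74, 7.24 and 5.44 CPM in controls and 27.4, 82.8, 19.4 and 35.3 CPM in β-tetO-NICD islets. All 4 β-tetO-NICD libraries were far above the controls, and the lowest here was β-tetO-NICD 4. Rsad2 had a log2 fold change of 2.64 (SE 0.42, 6.23-fold, adjusted p = 0.00697), and it passed in all 8 fits with a library left out. Isg20, a 3′ exonuclease that degrades RNA, had 65.3, 72.1, 77.5 and 55.9 CPM and then 95.4, 165, 150 and 109 CPM, without overlap (0.94, SE 0.20, adjusted p = 0.0256, 3 of 8 fits, highest 0.0880). Ifi35 had 23.9, 23.6, 24.2 and 19.1 CPM and 27.2, 45.2, 42.8 and 65.1 CPM, without overlap (0.99, SE 0.24, adjusted p = 0.0388, 1 of 8 fits, highest 0.118). For Rtp4 the values were 3.83, 4.18, 5.89 and 4.50 CPM and 5.28, 19.7, 10.6 and 14.0 CPM, so β-tetO-NICD 1 lay below control 3 (1.42, SE 0.36, adjusted p = 0.0445, 1 of 8 fits, highest 0.135). Rsad2 had the largest log2 fold change of these 9 genes.

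The genes of this group that were not called ranged from Xaf1 at 1.21 (adjusted p = 0.0521) to Lgals3bp at -0.05. Cmpk2, a mitochondrial kinase gene next to Rsad2 on chromosome 12, did not overlap between groups (0.91, SE 0.27, adjusted p = 0.0713). Lgals3bp, a secreted glycoprotein, had the highest level of the 51 genes, also per kilobase of transcript. It measured 447, 548, 414 and 440 CPM in controls and 466, 546, 457 and 322 CPM in β-tetO-NICD islets. The groups overlapped, with β-tetO-NICD 5 below every control (95% interval -0.48 to 0.39, adjusted p = 0.882).

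**Figure D2:**
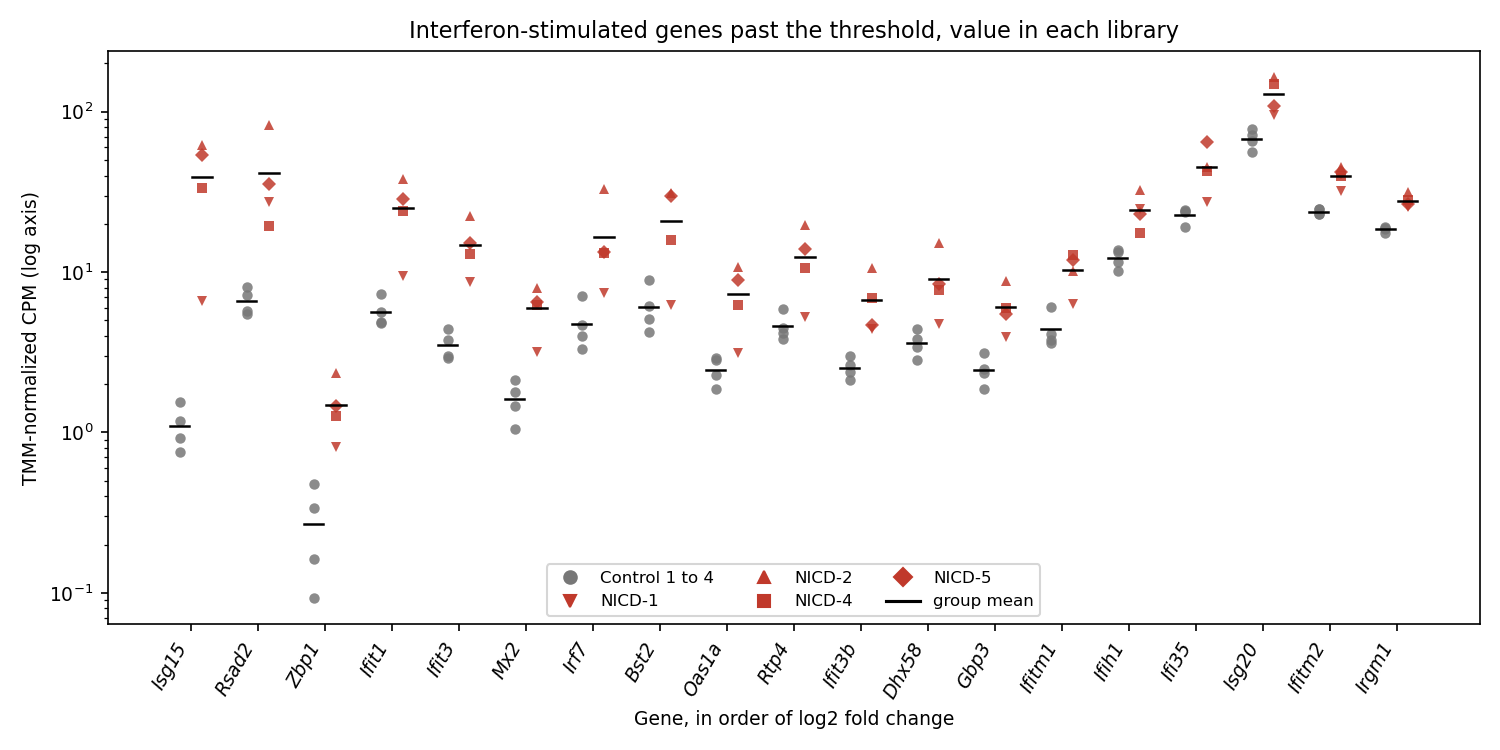
TMM-normalized CPM (log axis) of the 19 called genes in each library, controls in grey and β-tetO-NICD in red with a symbol per library, and bars at the group means. Downward triangles, β-tetO-NICD 1, are the lowest of their group in 17 of 19 genes, and upward triangles, β-tetO-NICD 2, are the highest in 17.

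Among the 19 called genes, β-tetO-NICD 1 was the lowest of its group in 17 and β-tetO-NICD 2 the highest in 17. Over all 50 tested genes these counts were 32 and 33. The summed level of the 19 called genes was 188.7, 202.5, 211.1 and 176.0 CPM in controls and 301.9, 673.9, 454.1 and 502.9 CPM in β-tetO-NICD islets. Over all 50 tested genes, the median difference from the control mean in log2(CPM + 1) was 0.23, 0.94, 0.65 and 0.73 in β-tetO-NICD 1, 2, 4 and 5, and between -0.06 and 0.09 in controls. In 22 of the 50 genes (44%) every β-tetO-NICD library was above every control, against 8.22% of all tested genes, and in 0 genes every β-tetO-NICD library was below, against 7.92%. Of these 22, 17 were called and 5 were not (Irf9, Ifi47, Usp18, Cmpk2 and Xaf1). The called genes Bst2 and Rtp4 overlapped.

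**Figure D3:**
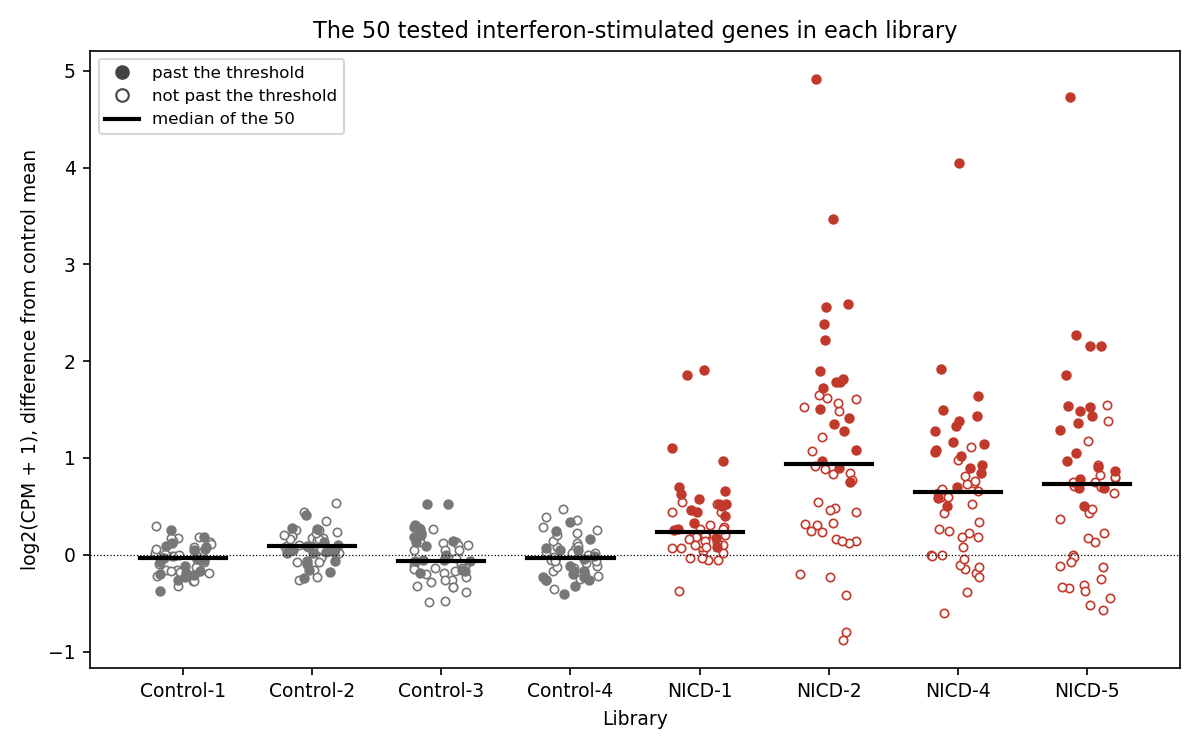
Difference of each tested gene from its control mean, in log2(CPM + 1), for each library, with a bar at the median of the 50 genes. The medians of the 4 β-tetO-NICD libraries (NICD-1, NICD-2, NICD-4 and NICD-5) lie at 0.23, 0.94, 0.65 and 0.73, above all 4 control medians.

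Leaving out single libraries changed how many genes passed. Without β-tetO-NICD 2 the count of called genes fell from 19 to 5, Isg15, Rsad2, Ifit1, Ifit3 and Mx2, while the median log2 fold change was 0.63, and the share of all genes called higher fell from 4.19% to 1.49%. The count was 6 without control 1, control 4 or β-tetO-NICD 4 (2.21%, 2.02% and 1.78% of all genes), 8 without control 2 (2.31%), and 12 without control 3 or β-tetO-NICD 5 (3.60% and 2.66%). Without β-tetO-NICD 1 the count was 32 higher and 1 lower, against 16.3% of all genes called higher and 17.0% called lower. Isg15, Rsad2, Ifit1, Ifit3 and Mx2 passed in each of the 8 fits. In all 8 fits the median log2 fold change stayed between 0.63 and 1.01.

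Transcript length was related to the differences. Across all 14659 tested genes with a length, Spearman's rho of log2 fold change with transcript length (longest annotated transcript) was -0.49, and across the 50 genes it was -0.53 (a description over genes, which are not independent). With all tested genes cut into 10 bins by length, the median of the bin fell from 0.59 in the shortest to -0.48 in the longest. The called genes had a median length of 2000 bases and those not called 3274 bases. In a fit with an offset for the length trend of each library, 17 genes were called higher (5.82% of all genes), 16 of them also called without it, and the median log2 fold change was 0.60. Ifitm1 (0.75, adjusted p = 0.0873), Ifitm2 (0.22, adjusted p = 0.402) and Isg20 (0.55, adjusted p = 0.0955), which are among the shortest, were no longer called, and Xaf1 was (adjusted p = 0.0468). Isg15 (4.52), Rsad2 (2.78), Ifit1 (2.03), Ifit3 (1.78) and Mx2 (1.76) kept their calls. Libraries were also split by length trend and compared by group means of log2(CPM + 1). The median difference within controls 1, 2 and 4 and β-tetO-NICD 1 was 0.22, with 43 of 50 genes higher and Isg15 at 1.96. In control 3 and β-tetO-NICD 2, 4 and 5 it was 0.85, with 45 higher and Isg15 at 4.27. Over all tested genes these medians were -0.0039 and 0.0008. Each set holds a single library of 1 group. Length trend and group largely coincided, so these values cannot tell them apart.

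**Figure D4:**
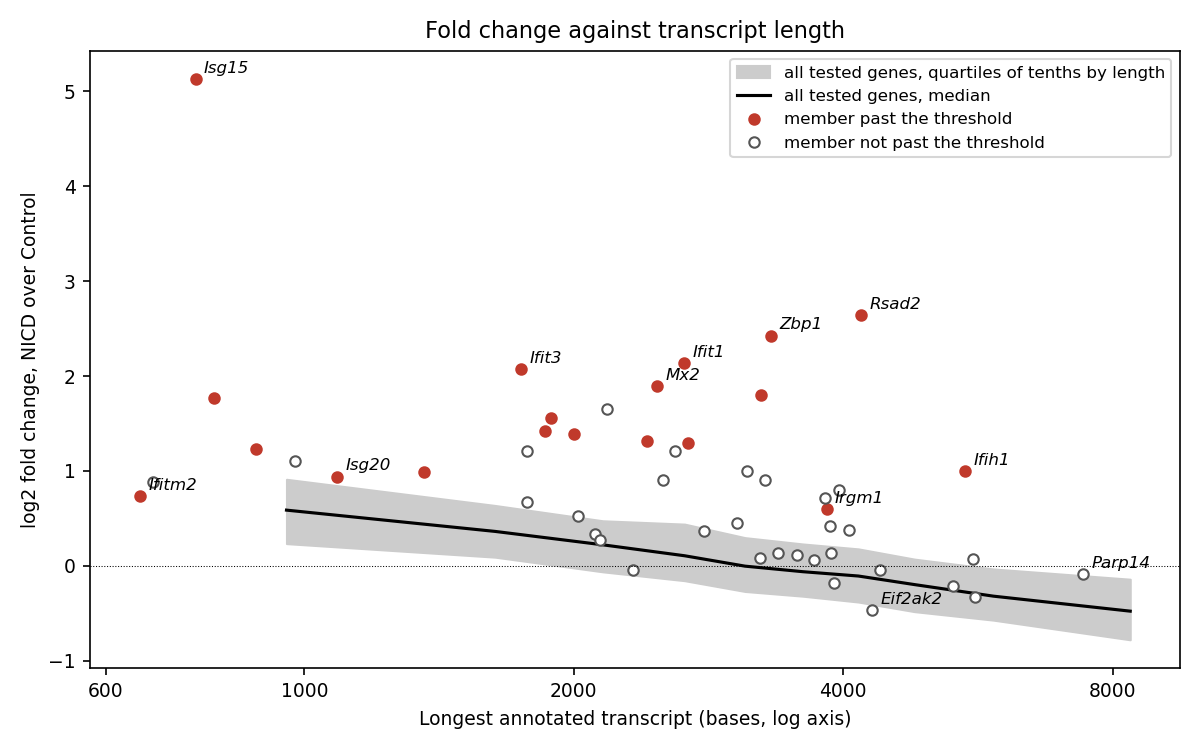
Log2 fold change (β-tetO-NICD over Control) against the longest annotated transcript (bases, log axis), for the 50 tested genes as points and for all tested genes as the median (line) and quartiles (grey band) of 10 bins by length. Isg15, Rsad2, Zbp1, Ifit1, Ifit3, Mx2 and Ifih1 lie well above the band, and Isg20 and Ifitm2 lie near its upper edge.

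Within the 3 libraries with over 1 count of Eif2s3y, the median difference between the group means in log2(CPM + 1) was 0.69 and 38 of 50 genes were higher in β-tetO-NICD islets, and within the other 5 the median was 0.69 and 45 were higher. Over all tested genes these medians were -0.04 and 0.00. The 3 libraries include a single β-tetO-NICD library. With Eif2s3y as a covariate, 11 of the 50 genes were called higher, against 3.21% of all genes. Irf7, Dhx58, Oas1a, Ifit3b, Bst2, Gbp3, Isg20 and Rtp4 were no longer called (adjusted p from 0.0511 for Isg20 to 0.0744 for Bst2). With the covariate their log2 fold changes ran from 0.88 (Isg20) to 1.76 (Bst2), and without it from 0.94 (Isg20) to 1.80 (Irf7). The median of the 50 genes was 0.81 with the covariate. Irf7, Dhx58, Oas1a, Bst2 and Rtp4 also missed the threshold with limma-voom (adjusted p from 0.0555 for Oas1a to 0.0847 for Bst2).

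The ligands themselves were scarcely counted. Of 21 interferon genes, 16 had 0 counts in every library. Ifnz reached 8 counts, Ifnl2 reached 3, and Ifnb1, Ifnk and Ifng had at most 1 in any library, which is at or under a floor of 3 counts (0.0996 to 0.151 CPM, counting error only) for all but Ifnz. Interferon transcript was therefore not detectable at this depth in most libraries, which sets no limit on interferon protein. Of 7 further receptor and signaling genes, 0 passed in edgeR after adjustment, 4 had an unadjusted p under 0.05, and DESeq2 called 2 and limma-voom 0. Jak1, the kinase shared by these receptors, had a log2 fold change of -0.94 (SE 0.26, adjusted p = 0.0597).

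In all, 74 of 96 further interferon pathway genes were tested. Of these, 8 (10.8%) were called higher and 0 lower by edgeR, against 4.19% and 2.57% of all genes (7 had an unadjusted p under 0.05 with a negative log2 fold change, and DESeq2 called 2 of them lower and limma-voom 0), and their median log2 fold change was 0.35. The chemokine gene Cxcl10, which attracts T cells, measured 0.277, 0.760, 0.712 and 1.75 CPM in controls and 4.75, 47.5, 23.6 and 34.6 CPM in β-tetO-NICD islets. The order of the β-tetO-NICD libraries was that of Isg15 (log2 fold change 4.96, SE 0.73, adjusted p = 0.00489). The others called were the GTPase genes Tgtp1 (1.80, adjusted p = 0.0147) and Tgtp2 (1.22, adjusted p = 0.0260), which are near copies, the immunoproteasome gene Psmb8 (1.53, adjusted p = 0.0198), the transcription factor gene Irf8 (1.34, adjusted p = 0.0193), Epsti1 (1.12, adjusted p = 0.0445), the peptide transporter gene Tap1 (0.96, adjusted p = 0.0195) and Ly6e (0.74, adjusted p = 0.0425). Of the 11 genes for sensing adaptors and kinases edgeR called 0 (1 at an unadjusted p under 0.05, 0 by DESeq2 and by limma-voom), and of the 5 for negative regulators 0 (3 unadjusted, 1 by DESeq2, 0 by limma-voom).

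Some markers of immune cells were also higher. Summed levels of 3 leukocyte markers were 23.8 to 29.5 CPM in controls and 32.2 to 45.6 CPM in β-tetO-NICD islets, and 1 of the 3, Coro1a, was called (1.11, adjusted p = 0.0320). Those of 10 macrophage markers were 160.5 to 212.2 and 240.6 to 338.8 CPM, and 2 of the 10 were called, C1qa (0.95, adjusted p = 0.0273) and Cd14 (1.73, adjusted p = 0.00543), while Adgre1, Csf1r, Cd68 and Lyz2 had log2 fold changes between -0.38 and 0.09, and Mrc1 and Itgam had -0.25 and -1.16 (adjusted p = 0.625 and 0.140). The median log2 fold change of the 10 was 0.08, and C1qa alone held 62.1 to 98.0 CPM of their sum in controls and 112 to 181 CPM in β-tetO-NICD islets. Sums of the 3 NK cell markers were 0.00 to 0.203 and 0.428 to 1.86 CPM. None of the immune markers was at 0 in all 8 libraries. Of the 18 dendritic, T cell, B cell, NK cell and neutrophil markers, edgeR called 0 (2 at an unadjusted p under 0.05, 1 by DESeq2, 0 by limma-voom), and the NK cell and neutrophil markers did not reach the count filter. Their part in the result was not tested. Endocrine markers marked the tissue as islet in all libraries and differed too, with summed β cell markers at 156600 to 197300 CPM in controls and 71890 to 171800 CPM in β-tetO-NICD islets. Of 8 β cell markers 3 were lower (Slc2a2, G6pc2 and Ucn3), and of 2 δ cell markers 1 was higher (Hhex). Acinar marker sums ranged from 28300 to 55810 CPM in controls and from 23940 to 86390 CPM in β-tetO-NICD islets, and were highest in β-tetO-NICD 1. With the acinar markers as a covariate, 26 of the 50 genes were called higher, against 5.04% of all genes.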

How the data were processed

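RNA of islets from 4 control and 4 β-tetO-NICD mice was made into stranded poly(A) libraries. The authors pseudoaligned reads to the GRCm38 transcriptome with Kallisto and deposited whole-number counts per gene symbol, not normalized. The Kallisto version and annotation release are not given in the sources used here. The authors' own comparison (fold changes and p-values) was not used. The count table held no further sample columns.

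The analysis used edgeR 4.0.16 (R 4.3.3). A gene was tested if 4 or more of the 8 libraries had 10 or more counts. After TMM normalization, groups were compared with the quasi-likelihood test (glmQLFit, glmQLFTest) without covariates. Benjamini-Hochberg adjustment ran over all 15082 tested genes, with a threshold of 0.05. P-values are edgeR's unless another tool is named. Intervals are 95% intervals of that fit. The smallest chi-square between libraries of a group was 31.5 per gene, so each counted as 1 replicate. Nothing in the labels says more than that libraries are separate mice.

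The genes and lists were chosen with earlier results of these data known, so no list-wide test was run. Values in every library are given for called genes, the 2 genes with the highest mean CPM, the receptors and the transcription factors, and in each role group the largest and smallest log2 fold changes are named. Coordinates and lengths are from GENCODE M21 (GRCm38), and promoters from RefSeq (GRCm38.p6).

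Alternatives were DESeq2 1.42.0, limma-voom (limma 3.58.1), other normalizations and count filters, scaling to Ppia, a replicate block, covariates for Eif2s3y and acinar markers, a length offset and leaving out each library. A fit without the library of each group whose length trend differed was added after seeing the data. The fit was tested beforehand on simulated counts. These held no length trend, so they cannot show how the fit behaves under the trend of these libraries.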

Additional observations from a re-analysis of the deposited data

Results flagged for a closer look

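In 8 of 100 sets of 4 libraries (each of the 50 tested genes in each group), a single library stood apart from the other 3 by more than Dixon's 95% limit on the ratio of its gap to the whole range (0.829). Chance alone would give about 5 in independent sets. These sets share the same 8 libraries, so no conclusion is drawn from the count. β-tetO-NICD 2 was the high library for Irf9 (ratio 0.941, 25.6 CPM against 16.1 to 16.7), Mx1 (0.873, 2.49 against 1.16 to 1.33 CPM) and Cmpk2 (0.841, 67.8 against 28.1 to 34.4 CPM). Control 2 was high for Ifitm3 (0.839, 21.3 against 12.0 to 13.5 CPM) and Gbp2 (0.852, 5.19 against 2.91 to 3.25 CPM), and low for Usp18 (0.907, 22.8 against 29.2 to 29.8 CPM). Control 3 was low for Parp14 (0.850, 22.2 against 34.0 to 36.1 CPM), and control 4 for Ifi35 (0.889, 19.1 against 23.7 to 24.2 CPM). Of these 8 genes only Ifi35 was called.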

How the results depend on the processing

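The count of genes called higher (in parentheses, the share of all genes called higher) was 19 (4.19%) as reported, 29 with DESeq2 (9.91%), 11 with the Eif2s3y covariate (3.21%), 1, Isg15, with scaling to Ppia (0.61%), and 5 without β-tetO-NICD 2 (1.49%) to 32 without β-tetO-NICD 1 (16.3%) when 1 library was left out. In the fit of controls 1, 2 and 4 with β-tetO-NICD 2, 4 and 5, added after seeing the data, it was 30 (19.5%), with 2 lower (Eif2ak2 and Gbp7, against 19.98% of all genes). Calls lower ranged from 0 to 1 (17.0% of all genes, without β-tetO-NICD 1) over the fits with a library left out. Ppia scaling moved the median of all genes to -0.43 and that of the 50 genes to 0.27, a difference of 0.70 against 0.84 without it, and left 11 genes higher without overlap between groups, against 3.21% of all genes. Ppia, which the study used as its invariant control in absolute quantitation of transcripts, had 5225 to 7933 raw counts in controls. It had 5144 in β-tetO-NICD 1 and 9524 to 11254 in β-tetO-NICD 2, 4 and 5. The length offset gave a median of 0.60. The other settings gave between 15 (limma-voom, 4.12%) and 26 (acinar covariate, 5.04%) genes called higher.

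Genes whose direction turned had small changes and were not called. Ppia scaling moves all genes alike, and this shift turned Irf1 (-0.17), Irf9 (-0.038), Mx1 (-0.35), Ddx58 (-0.27), Ifi44 (-0.18), Parp9 (-0.29), Parp12 (-0.36), Trim25 (-0.34), Ifnar2 (-0.063), Ifngr1 (-0.17) and Ifngr2 (-0.38). Stat2 turned with upper-quartile normalization (0.031) and the length offset (0.10), and ranged from -0.12 to 0.045 with 1 library left out (positive without control 2 or β-tetO-NICD 5). Lgals3bp turned with upper-quartile normalization (0.029) and ranged from -0.15 to 0.088 with 1 library left out (positive without the same libraries). The rest were Parp14 (0.33) and Dtx3l (0.0043) with the length offset, Trim25 in the added fit (-0.033), Mx1 without β-tetO-NICD 2 (-0.18 to 0.27 with 1 library left out) and Ifngr2 without control 4 (-0.048 to 0.15). The causes of turns other than those with Ppia were not tested.

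With the replicate block, 19 genes were called higher (3.70%), 16 of them also without it (median 0.77). It ended the calls of Oas1a, Bst2 and Ifi35, and total-count scaling those of Dhx58 and Irgm1. Numbers 1 and 2 are the only ones tied to a mouse in both groups. The correlations of deviations, 0.32 and -0.14 for these and 0.085 for the columns numbered 4, do not show that numbers pair the mice. Depth limits Zbp1 and Oas3, with counts under 10 in most controls.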
